A study of Rattus norvegicus with 6 samples.

Results

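Type I collagen alpha 1 (Col1a1), type I collagen alpha 2 (Col1a2), type III collagen alpha 1 (Col3a1), fibronectin (Fn1) and Sparc were followed in rat vascular smooth muscle cells (the muscle layer of blood vessels). The cells carried CRISPR-dCas9 with a guide to overexpress the long non-coding RNA MIAT, or with a control guide. The 5 genes were taken by Ensembl identifier from a table of 32883 genes, and all 5 passed the filter on low counts together with the rest of the 12044 genes tested. Polyadenylated RNA of 6 samples was sequenced. The 3 sg-MIAT samples received a CRISPR-dCas9 system, built on a Cas9 that binds DNA but no longer cuts it, with a guide to overexpress MIAT. The 3 sg-U6 samples, labelled WT, carried dCas9 as well, here with the negative control guide sg-U6, so dCas9 is shared by both groups. The labels give the tissue only as vessel, number the samples of each group 1 to 3, and do not state the strain, age, vessel, passage, time after treatment or whether the samples came from separate cultures or animals. Variation among these samples may thus be technical, and the p-values rest on it.

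Fibrillar collagens are secreted as procollagen chains that wind into a helix, are trimmed outside the cell and assemble into the fibres that give the vessel wall its tensile strength. A type I collagen molecule combines chains from Col1a1 and Col1a2, whereas type III collagen is built from Col3a1 chains alone and mixes with type I in extensible tissue such as arteries and veins. Fibronectin, the product of Fn1, is an adhesive glycoprotein that cells stretch into fibrils through integrins, and collagen is laid down on it. Sparc encodes a secreted calcium- and collagen-binding glycoprotein that modulates how collagen is processed and how cells attach to it. Smooth muscle cells that leave the contractile state for the synthetic state make large amounts of this matrix, a feature of neointimal growth in vein grafts.

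Libraries held between 13128977 (sg-MIAT 1) and 18257865 (sg-MIAT 2) counts. The counts of the 5 genes were large, from 3884 for Col1a2 in sg-U6 1 to 484590 for Col1a1 in sg-MIAT 2. Even the lowest count had an exact Poisson 95% interval of only 3763 to 4008, which covers counting error alone, so counting error was small beside the spread between samples. The identifiers of other genes were paired with no name in the sources used here, so Miat itself, smooth muscle markers and markers of other vessel cells were not checked in these libraries, and their part in the results below was not tested.

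No difference between the guides passed the test across all genes for any of the 5. In edgeR's quasi-likelihood test, 0 of the 5 had a Benjamini-Hochberg adjusted p under 0.05, and 0 of the 5 had an unadjusted p under 0.05. Over all 12044 genes tested, edgeR called 0% at the adjusted threshold and 3.96% at an unadjusted p under 0.05. DESeq2 also called 0 of the 5, where it called 0.476% of genes, with adjusted p-values of 0.770 for Col1a1 and 0.437 for Sparc. The DESeq2 unadjusted values were under 0.05 for these 2 of the 5, at 0.0321 and 0.00799, and for 3.99% of the 18313 genes to which DESeq2 gave a p. Sparc was the only one of the 5 whose groups did not overlap: all 3 sg-MIAT samples lay above all 3 sg-U6 samples, a separation in the direction of sg-MIAT that 4.65% of all genes tested showed. The 3 collagen genes had higher mean levels in sg-MIAT with overlapping samples, and Fn1 had a slightly lower mean. In bulk RNA, fewer cells of a type and less RNA per cell cannot be told apart.

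**Figure D1:**
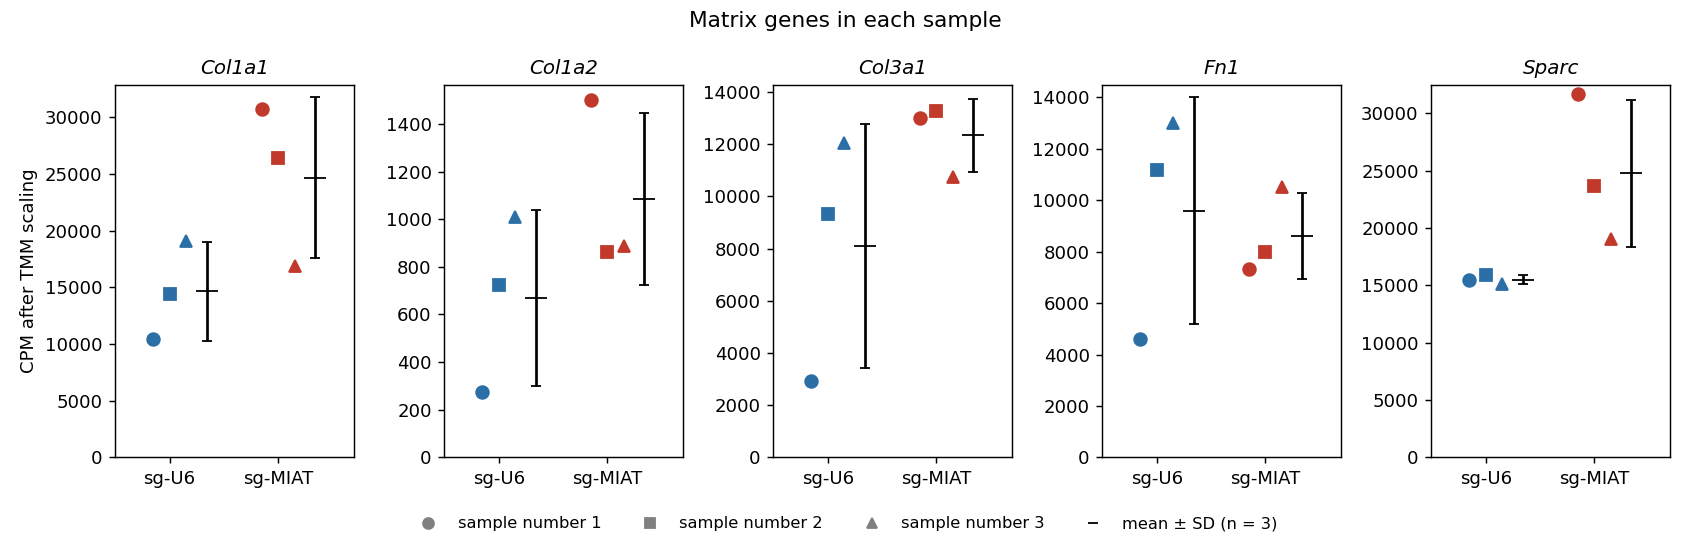
Level of each gene in each of the 6 samples, in CPM after TMM scaling (a separate linear axis from 0 per gene), with the marker shape giving the sample number and the bar the mean ± SD of 3 samples. The sg-U6 1 circle is the lowest point for Col1a1, Col1a2, Col3a1 and Fn1, and the 3 sg-U6 points of Sparc lie close together below all sg-MIAT points.

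Levels are given here in CPM, counts per 1000000 counts of the library after TMM scaling, which corrects for differences in library composition. They are not divided by transcript length, so they compare samples for 1 gene and do not rank the genes against each other. Samples 1, 2 and 3 of sg-MIAT held Col1a1 (ENSRNOG00000003897) at 30761, 26423 and 16891 CPM, and samples 1, 2 and 3 of sg-U6 held it at 10417, 14437 and 19120.4 CPM. Its groups overlapped only through sg-U6 3, which lay above sg-MIAT 3. Col1a1 averaged 24692 ± 7095 CPM with the MIAT guide against 14658 ± 4356 CPM with the control guide (SD, n = 3 each), a fitted 1.68-fold ratio with a 95% interval of 0.900 to 3.15. The log2 fold change was 0.75 ± 0.38 (SE), with an adjusted p of 0.9995 in edgeR, and it was 0.37 ± 0.35 (SE) without both samples numbered 1.

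Col1a2 (ENSRNOG00000011292), the partner chain, was at 1502, 864 and 886 CPM in samples 1, 2 and 3 of sg-MIAT, compared with 273, 725 and 1008 CPM in samples 1, 2 and 3 of sg-U6. The extremes were the 2 samples numbered 1, highest in sg-MIAT and lowest in sg-U6, and sg-U6 3 exceeded both sg-MIAT 2 and sg-MIAT 3. The fitted ratio of sg-MIAT to sg-U6 was 1.62 (95% interval 0.713 to 3.68), and the log2 fold change of 0.70 ± 0.49 (SE) had an adjusted p of 0.9995 in edgeR. The edgeR log2 fold change of Col1a2 was 0.38 when sg-MIAT 1 was omitted, 0.33 when sg-U6 1 was, 1.12 when sg-U6 3 was, and 0.02 ± 0.22 (SE) when both samples numbered 1 were.

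Sequences upstream of Col1a2 and Sparc are shown, the 2 of the 5 genes with an entry in the table of promoter windows. Col1a2 had the widest span over the 6 samples, and Sparc was the gene whose groups did not overlap. Both come from RefSeq on the rat build GRCr8, are written 5′ to 3′ on the strand of the gene and begin 250 bases before the annotated start of the gene. Capitals mark matches to the motifs searched.
Col1a2: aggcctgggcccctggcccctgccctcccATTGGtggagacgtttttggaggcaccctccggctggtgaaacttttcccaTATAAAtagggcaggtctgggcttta
Sparc: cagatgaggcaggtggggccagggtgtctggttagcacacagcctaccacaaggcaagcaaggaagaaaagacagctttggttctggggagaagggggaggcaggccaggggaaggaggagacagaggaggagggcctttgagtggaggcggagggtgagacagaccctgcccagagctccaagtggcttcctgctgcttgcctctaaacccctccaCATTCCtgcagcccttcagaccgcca
Col1a1, Col3a1 and Fn1 had no window. The motifs were the CCAAT box (CCAAT), the TATA box (TATAAA), an AP-1 element (TGAGTCA), a TEAD element (GGAATG) and the GC box (GGGCGG), each on both strands over the 300 bases of a window, and none contains another. The Col1a2 window held the CCAAT box on the opposite strand, read as ATTGG from 221 bases before the start, and TATAAA from 170 bases before it. The Sparc window held neither, and had the TEAD letters on the opposite strand, as CATTCC, from 33 bases before the start. Over 33469 windows of the same length, 37.5% held CCAAT, 14.2% TATAAA, 14.2% GGAATG, 33.1% GGGCGG and 4.63% TGAGTCA on either strand. These matches describe letters and not bound sites.

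Col3a1 (ENSRNOG00000003357), the chain of type III collagen, stood at 13011, 13261 and 10736 CPM in samples 1, 2 and 3 of sg-MIAT, compared with 2921, 9308 and 12029 CPM in samples 1, 2 and 3 of sg-U6. The sg-MIAT samples lay within 1.24-fold of each other, whereas the control samples spanned 4.12-fold, wider than the control span of 86.3% of the genes tested. The single low value was sg-U6 1, and sg-U6 3 lay above sg-MIAT 3. Col3a1 averaged 12336 ± 1392 CPM with the MIAT guide against 8086 ± 4676 CPM with the control guide (SD, n = 3 each). The edgeR log2 fold change was 0.61 ± 0.51 (SE) with an adjusted p of 0.9995, a ratio of 1.53 with a 95% interval of 0.649 to 3.58. Without sg-U6 1 the log2 fold change was 0.22 ± 0.29 (SE), and without sg-U6 3 it was 1.01 ± 0.55 (SE).

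Fn1 (ENSRNOG00000014288) followed another order. Its level was 7315, 7996 and 10509.7 CPM in samples 1, 2 and 3 of sg-MIAT, compared with 4607, 11167 and 13003.5 CPM in samples 1, 2 and 3 of sg-U6. The 2 highest samples were controls, and the lowest, sg-U6 1, was also a control, so the sg-MIAT samples fell inside the range of the controls. Fn1 averaged 8607 ± 1683 CPM with the MIAT guide against 9593 ± 4414 CPM with the control guide (SD, n = 3 each), and edgeR gave a log2 fold change of -0.16 ± 0.43 (SE) and an adjusted p of 0.9995. The 95% interval of the ratio was 0.440 to 1.83. The direction rested on the controls: the log2 fold change was -0.48 ± 0.29 (SE) without sg-U6 1 and 0.13 ± 0.46 (SE) without sg-U6 3.

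Sparc (ENSRNOG00000012840) reached 31645, 23619 and 19026 CPM in samples 1, 2 and 3 of sg-MIAT, compared with 15507, 15873 and 15139 CPM in samples 1, 2 and 3 of sg-U6. The controls lay within 1.05-fold of each other, a narrower span than in all but 0.971% of the genes tested, while the sg-MIAT samples spanned 1.66-fold. The lowest sg-MIAT sample lay above the highest control, and the same held for the deposited CPM, which are scaled to library totals alone, at 19623 in sg-MIAT 3 against 16643 in sg-U6 2. Sparc averaged 24763 ± 6387 CPM with the MIAT guide against 15506 ± 367 CPM with the control guide (SD, n = 3 each), a 1.60-fold ratio with a 95% interval of 0.966 to 2.64. The log2 fold change of Sparc was 0.68 ± 0.30 (SE), with an unadjusted p of 0.0635 and an adjusted p of 0.9995 in edgeR, and it was 0.45 ± 0.29 (SE) without sg-MIAT 1. An exact two-sided permutation test of its log2 CPM gave p = 0.1, the smallest that 3 samples against 3 allow. Groups without overlap always give this value, so it restates the separation.

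**Figure D2:**
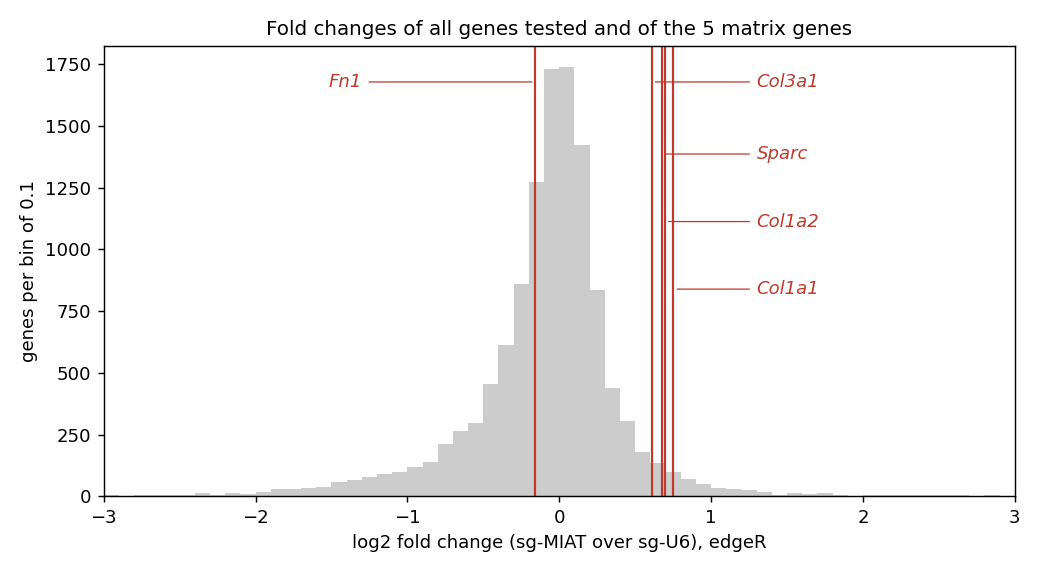
Number of genes per 0.1 of edgeR log2 fold change (positive: higher in sg-MIAT) for the 12023 of 12044 genes tested that fall between -3 and 3, with a vertical line for each of the 5 matrix genes. Col1a1, Col1a2, Col3a1 and Sparc lie between 0.61 and 0.75 in the right flank of the distribution, and Fn1 lies near its centre at -0.16.

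The 4 positive differences were larger than those of most genes tested. The median absolute log2 fold change was 0.68 for the 5 genes and 0.19 for the 12044 genes tested, and the signed medians were 0.68 and -0.03. Absolute differences of Col1a1, Col1a2, Sparc and Col3a1 were as large as or larger than those of 89.0%, 87.5%, 86.9% and 84.7% of genes, and that of Fn1 than 42.7%. By unadjusted edgeR p, Sparc ranked 609 and Col1a1 865 of 12044 genes, followed by Col1a2 at 2076, Col3a1 at 2890 and Fn1 at 8491. The coefficient of variation within groups was 45.8% for Col1a2, 41.7% for Col3a1, 35.4% for Fn1, 29.2% for Col1a1 and 18.3% for Sparc, where the median over genes was 25.6%. Of the 5, Sparc alone was below that median, through its controls: within sg-MIAT its span was wider than that of 63.9% of genes.

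The same-numbered samples gave a different picture for each number, and the labels state no pairing of them. In number 1 every gene was higher in sg-MIAT, by 5.49-fold for Col1a2, 4.45-fold for Col3a1, 2.95-fold for Col1a1, 2.04-fold for Sparc and 1.59-fold for Fn1. In number 2 the ratio of sg-MIAT to sg-U6 was 1.83 for Col1a1, 1.49 for Sparc, 1.42 for Col3a1, 1.19 for Col1a2 and 0.716 for Fn1. In number 3 it was 1.26 for Sparc and below 1 for the others, between 0.808 for Fn1 and 0.892 for Col3a1. Sparc was therefore higher in sg-MIAT in all 3 numbers, as were 15.4% of the genes tested. Its separated groups fixed that outcome for any matching of the samples. The 3 collagen genes were higher in sg-MIAT in 2 of 3 numbers, and Fn1 in 1 of 3. Fitted with a replicate block, edgeR gave Sparc a log2 fold change of 0.64 ± 0.24 (SE), an unadjusted p of 0.0371 and an adjusted p of 0.630, and again called 0 of the 5. With this block edgeR gave 7.62% of genes an unadjusted p under 0.05 and called 0%, and DESeq2, which called 1.1% of genes with it, also called 0 of the 5. Unadjusted p in DESeq2 with the block was under 0.05 for 3 of the 5: Col1a1 (0.0157), Col3a1 (0.0277) and Sparc (0.00259). Their adjusted p-values there were 0.366, 0.487 and 0.142. The share of all genes with an unadjusted p under 0.05 in that fit was not counted.

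**Figure D3:**
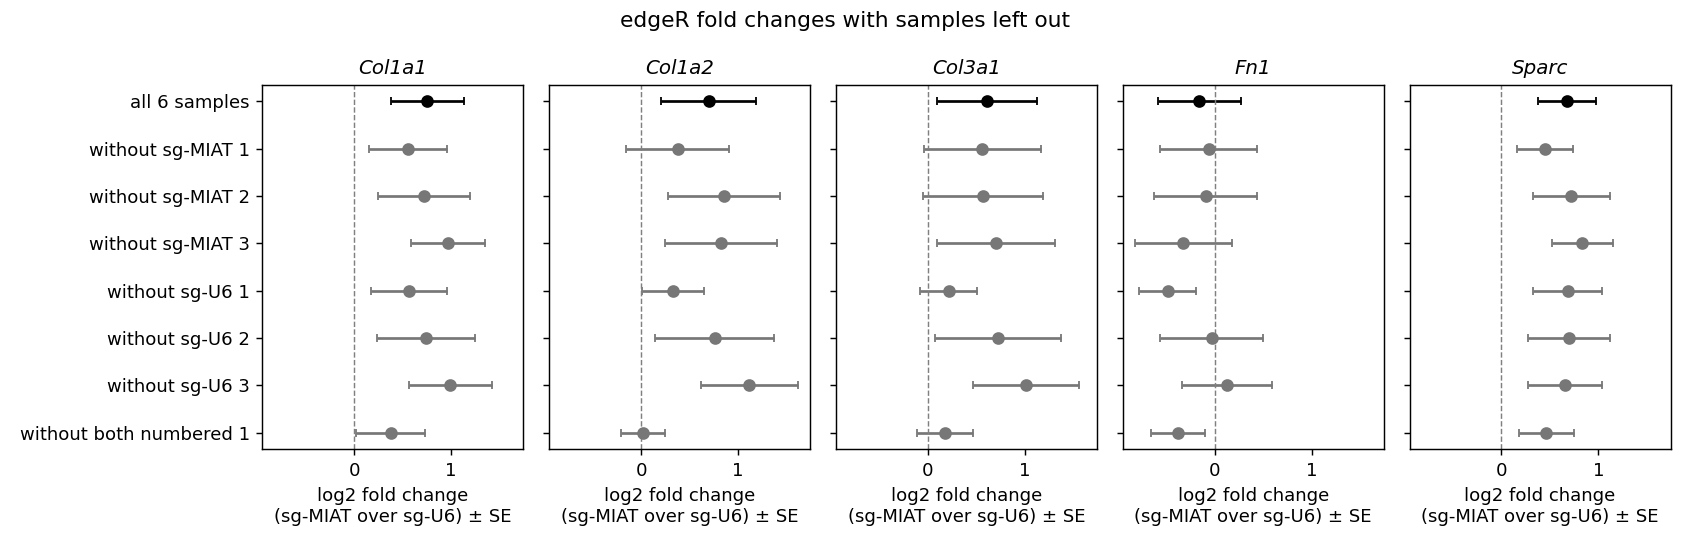
edgeR log2 fold change of each gene (points; positive: higher in sg-MIAT) with its SE (bars), fitted on all 6 samples (black) and with 1 sample, or both samples numbered 1, left out (grey). Col1a2 moves from 0.70 to 0.02 without both samples numbered 1 and Col3a1 to 0.18, Sparc stays between 0.45 and 0.84, and Fn1 crosses 0 without sg-U6 3.

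The control sample sg-U6 1 was the lowest of the 6 samples for Col1a1, Col1a2, Col3a1 and Fn1, as it was for 26.2% of all genes tested. It was also the lowest for Sparc in the deposited CPM, at 14806, but not after TMM scaling. Genes with any count were fewest in this library and in sg-MIAT 1, 15528 and 15101, against 15650 to 15794 in the other 4. Whether RNA quality or library complexity had a part in the low values was not tested. Together the 5 genes took 7.50%, 7.25% and 5.99% of all counts in sg-MIAT 1, 2 and 3. They took 3.22%, 5.40% and 6.49% in sg-U6 1, 2 and 3. The mean share was 6.91% ± 0.810 with the MIAT guide against 5.04% ± 1.67 with the control guide (SD, n = 3 each), a difference of 1.87 percentage points, which was 0.965 points without sg-U6 1. Sample sg-U6 3 lay above sg-MIAT 3 in this share, so the groups overlapped.

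Ratios between 2 genes within a library do not depend on how libraries are scaled, and transcript length cancels when the same ratio is compared between samples. Counts of Col1a1 were 20.5, 30.6 and 19.1 times those of Col1a2 in samples 1, 2 and 3 of sg-MIAT, compared with 38.1, 19.9 and 19.0 times in samples 1, 2 and 3 of sg-U6. In 4 of the 6 libraries the partner chains thus kept nearly the same ratio, from 19.0 to 20.5, and sg-MIAT 2 and sg-U6 1 stood above them. The mean log2 ratio of Col1a1 to Col1a2 differed by -0.09 between sg-MIAT and sg-U6, with p = 0.9 in an exact two-sided permutation test and 0.9 after Benjamini-Hochberg adjustment over the 4 ratios tested. The size of the ratio is one of counts and does not measure the proportion of chains. Whether the gene model or the read counting lowered the counts of Col1a2 was not tested, so its CPM and this ratio serve only to compare samples.

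**Figure D4:**
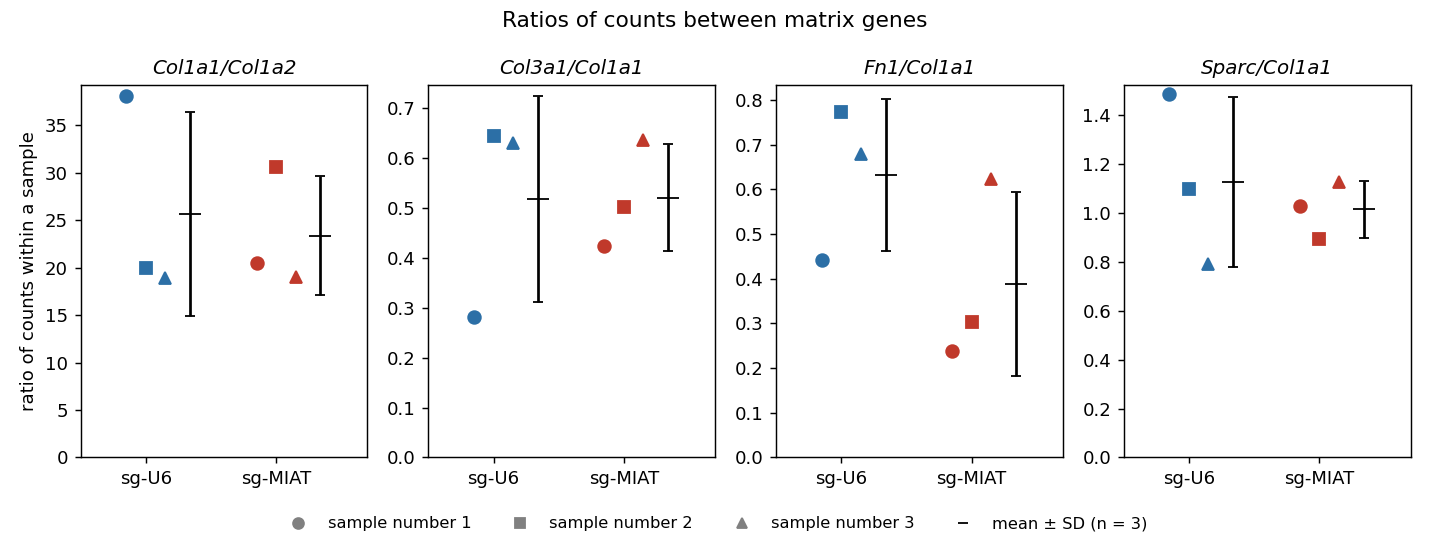
Ratio of counts of 2 genes within each sample (linear axes from 0), with the marker shape giving the sample number and the bar the mean ± SD of 3 samples. The Fn1/Col1a1 ratio spans 0.238 to 0.622 in sg-MIAT samples and 0.442 to 0.773 in controls, and in the other 3 panels sg-U6 1 lies at one end of the 6 samples.

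The ratio of Col3a1 to Col1a1 counts was 0.423, 0.502 and 0.636 in samples 1, 2 and 3 of sg-MIAT, compared with 0.280, 0.645 and 0.629 in samples 1, 2 and 3 of sg-U6. The group means were 0.520 ± 0.107 and 0.518 ± 0.206 (SD, n = 3 each), with p = 0.9 in the exact permutation test of the log2 ratio (0.9 adjusted over the 4). The ratio of Sparc to Col1a1 was 1.03, 0.894 and 1.13 in the sg-MIAT samples, compared with 1.49, 1.10 and 0.792 in the controls, in order of number. Its mean log2 difference was -0.11 (exact permutation p = 0.8, adjusted 0.9). The SD of the log2 ratio in sg-U6 was 0.68 and 0.46 for these 2 ratios. With 3 samples in each group the smallest p of this test is 0.1, so a change of any size could not fall under 0.05.

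Fibronectin set against collagen gave the largest of the 4 ratio differences. Fn1 counts were 0.238, 0.303 and 0.622 times those of Col1a1 in sg-MIAT 1, 2 and 3. In sg-U6 1, 2 and 3 they were 0.442, 0.773 and 0.680 times. The ratio was lower in sg-MIAT in all 3 same-numbered comparisons, for which the labels state no pairing. Sample sg-MIAT 3 lay above sg-U6 1, so the groups overlapped. The mean log2 ratio was -1.49 ± 0.72 with the MIAT guide against -0.70 ± 0.42 with the control guide (SD, n = 3 each), a difference of -0.79 that corresponds to a 1.73-fold higher ratio in sg-U6. The exact two-sided permutation test gave p = 0.2, or 0.8 after adjustment over the 4 ratios. The smallest p this design allows is 0.1.

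Over the 6 samples, the Pearson correlations of log2 CPM between the 5 genes ran from -0.205 to 0.945. The log2 CPM of Col1a1 and Col3a1 had the highest rank correlation of the 10 pairs (Pearson r = 0.837, exact permutation p = 0.00278, adjusted 0.0278 over the 10 pairs; Spearman rho = 0.943, exact permutation p = 0.0167, adjusted 0.167). Without the 2 samples farthest from the median of Col1a1, sg-U6 1 and sg-MIAT 1, r was 0.957 over the remaining 4. Col1a2 and Col3a1 gave r = 0.945 (exact permutation p = 0.0125, adjusted 0.0463) and rho = 0.657 (exact permutation p = 0.175, adjusted 0.438), and r was 0.683 without the same 2 samples. For the partner chains Col1a1 and Col1a2, r was 0.873 (exact permutation p = 0.0139, adjusted 0.0463) and rho 0.829 (exact permutation p = 0.0583, adjusted 0.292). Without sg-U6 1 and sg-MIAT 1, r of this pair was 0.443 over the remaining 4. Leaving out the samples farthest from a median narrows the range of a gene. Values of r without them thus cannot show which samples a relation rests on. For Fn1, r was 0.720 with Col3a1 (exact permutation p = 0.143, adjusted 0.272; rho = 0.0857, exact permutation p = 0.919, adjusted 1) and 0.612 with Col1a2 (exact permutation p = 0.190, adjusted 0.272; rho = 0.257, exact permutation p = 0.658, adjusted 0.823). For Col3a1 the 2 samples farthest from its median were sg-U6 1 and sg-U6 2, and for Col1a2 sg-U6 1 and sg-MIAT 1. Without them, r of Fn1 with these genes was -0.642 and 0.269 over the remaining 4. Fn1 gave lower values with Col1a1 (r = 0.244, exact permutation p = 0.640, adjusted 0.660; rho = 0.0286, exact permutation p = 1) and with Sparc (r = -0.205, exact permutation p = 0.660, adjusted 0.660; rho = -0.429, exact permutation p = 0.419, adjusted 0.699). For Fn1 with Col1a1, r was -0.675 without sg-U6 1 and sg-MIAT 1. For Fn1 with Sparc, r was -0.962 without sg-U6 1 and sg-U6 3, the 2 samples farthest from the median of Fn1. That value rests on the remaining 4 samples and was not tested. Sparc gave r = 0.844, 0.626 and 0.504 with Col1a1, Col1a2 and Col3a1 (exact permutation p = 0.0347, 0.181 and 0.229, adjusted 0.0868, 0.272 and 0.286). In the same order, rho was 0.657, 0.371 and 0.600 (exact permutation p = 0.175, 0.497 and 0.242). Without the 2 samples farthest from the median of the collagen gene, r was 0.752, -0.0405 and 0.589. The correlations pool both guides, and the samples may not be independent. How often other pairs of genes correlated as strongly over these 6 samples was not tested. Sample sg-U6 1 was the lowest for 26.2% of all genes tested.

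The genes outside the 5 with the most similar pattern were ENSRNOG00000049437 and ENSRNOG00000016398, chosen as the highest Pearson r over the 6 samples between log2 CPM and the mean centred log2 CPM of the 5 genes, among 7769 genes with a mean of at least 10 CPM. Their r was 0.994 and 0.988, and 36 of those genes had an r above 0.95. ENSRNOG00000049437 was at 339.7, 289 and 263 CPM in samples 1, 2 and 3 of sg-MIAT, compared with 127, 252 and 299 CPM in samples 1, 2 and 3 of sg-U6. ENSRNOG00000016398 was at 362, 356 and 319 CPM with the MIAT guide and at 188, 281 and 339 CPM with the control guide, in the same order. Both had their lowest value in sg-U6 1, where the mean centred log2 CPM of the 5 genes was lowest too, so their choice made this likely. Neither passed the edgeR test between the guides, which called 0% of all genes tested, with an adjusted p of 0.9995 for each.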

How the data were processed

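Poly(A) libraries with a dUTP-marked strand were sequenced from both ends (DNBSEQ-T7), per the labels' protocols. Per the submitters' processing notes, the tools included HISAT2 and DESeq2 and the build was Rnor_6.0. The read counter, the annotation release and the strand setting of counting are not given in the sources. The authors deposited raw counts for 32883 Ensembl genes, 1 column per sample, and a table named for FPKM whose deposited values are CPM: all but 5 genes equalled count over library total (relative tolerance 0.001), and 99.985% of values above 0 gave whole reads (within 0.01). edgeR on those reads called 0 of 12045 genes.

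The main test was edgeR 4.0.16 (R 4.3.3) on the counts: TMM, default filter (minimum count 10, total 15), quasi-likelihood F test, Benjamini-Hochberg adjustment over 12044 genes at 0.05. SE is the absolute log2 fold change over the square root of F. The edgeR test was also run on simulated data, and its outcome there is not reported here. Alternatives were other scalings and filters, DESeq2 1.42.0, limma 3.58.1 (voom, and trend on log2 of CPM), the replicate block and omission of samples. Log2 CPM used a prior count of 2. Groups were taken from sample titles. Across genes, departures from the group means in samples sharing a number correlated at 0.730, 0.126 and 0.334 for numbers 1, 2 and 3. Samples of different numbers reached 0.630 (sg-MIAT 2 with sg-U6 3) and 0.337 (sg-MIAT 3 with sg-U6 2). The labels state no pairing.

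The 5 genes, the lists and the naming rule (the 5 genes and the 2 of most similar pattern) were chosen with earlier results of these data known. Names of the 5 came with the choice of genes. The reference table (GRCr8, 47357 genes) pairs 0 identifiers with a symbol, so the 11 matrix and marker lists were not analysed and no coordinates are given. Promoter windows were matched by symbol.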

Additional observations from a re-analysis of the deposited data

How the results depend on the processing

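None of the 5 genes was called in the 20 alternatives, which include edgeR with the replicate block, DESeq2 with and without it and limma. DESeq2 with the block, DESeq2 without both samples numbered 1 and edgeR on reads recovered from CPM were added after seeing the data. The lowest adjusted p was 0.142, for Sparc in DESeq2 with the replicate block, and the highest for Sparc was 1. Over these alternatives the log2 fold change ran from 0.37 to 0.99 for Col1a1, 0.02 to 1.12 for Col1a2, 0.18 to 1.01 for Col3a1, -0.48 to 0.13 for Fn1 and 0.45 to 0.84 for Sparc. The shared direction of Sparc was all but fixed by its separated groups. Only Fn1 changed direction, without sg-U6 3 (0.13). With single samples left out, the log2 difference ran from -0.30 to 0.23 for Col1a1/Col1a2, from -0.31 to 0.29 for Col3a1/Col1a1, from -0.34 to 0.12 for Sparc/Col1a1 and from -1.20 to -0.50 for Fn1/Col1a1. Without sg-U6 1 the first 3 reversed, to 0.23, -0.31 and 0.12, and without sg-MIAT 3 the first 2, to 0.04 and -0.07. The replicate block left the 4 ratio differences as they were by construction, with exact p no lower than 0.25, the smallest that 3 pairs allow. Counting error was small for all 5 genes, and the calls were not recomputed at another depth.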
